A study of Oryza sativa with 12 samples.

Results

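Rice shoots of the line labelled slr1 (k1001) were compared here with shoots of Taichung 65 (T65), the parental cultivar, for every non-control probe set of an Affymetrix rice array. The members were the 57194 probe sets left after 187 control probe sets were set aside from the 57381 in the table, and the arrays were the 3 titled slr1 and the 3 titled T65, or 6 of the 12 in the series. The remaining 6 arrays held 3 replicates each of gid1-3 and gid2-1, which carry mutations in the gibberellin receptor and in an F-box protein. Each mutant is in the T65 background, so the 2 groups compared share that background and differ by the slr1 (k1001) allele alone as far as the labels go. Plants grew in a greenhouse under natural conditions and were harvested as shoots 5 weeks after germination, and no hormone or other agent is named. The labels call the replicates biological, without saying how many plants went into each, and they do not say whether k1001 has lost or gained function. It is a single allele, and the p-values measure only the spread between these samples.

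Gibberellin is a growth hormone that rice shoots need to elongate their stems and leaf sheaths. It binds the soluble receptor GID1, the bound receptor takes hold of SLR1, the DELLA protein of rice, and the F-box protein GID2 brings SLR1 to the ubiquitin machinery that destroys it. DELLA proteins hold growth back by binding to transcription factors, so the level of SLR1 protein, which arrays do not show, sets the output of the pathway.

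Signals are the deposited linear intensities, and means are given ± SD with n = 3 throughout. Array medians lay between 63.4 and 68.1 in T65, and slr1 had both a lower and a higher one, the highest at 75.8. Replicate spread, as the median coefficient of variation over probe sets of above-median signal, was 6.23% in T65 and 8.86% in slr1. With 3 arrays in each group, their number limits the precision. The brightest array level reached by the 95th percentile of the reporter controls, 42.0 in T65 and 51.6 in slr1, was taken as the background, and a gene whose group mean is below it, here called below the reporter level, has only an upper bound there. The 4 green-shoot markers measured (RBCS, RCA, CAB2R and PSAG) summed to 70026 to 75148 in T65 and 70127 to 93344 in slr1, with none called, so genes typical of green shoot were bright in both groups. Of the flower markers, MADS1, MADS3 and MADS13 lay below the reporter level in both groups, and the 7 flower markers summed to 692 to 923 in T65 and 607 to 672 in slr1. The 3 root markers measured summed to 3592 to 3969 in T65 and 2988 to 3326 in slr1, LSI2 being below the reporter level in both groups. The others went opposite ways. LSI1 (NIP2-1) was called higher, from 544 ± 15.5 to 789.8 ± 51.6, and NAAT1 lower, from 3265 ± 191 to 2287 ± 157. The LSI1 call was lost with arrays centred on the AFFX controls. Seed-protein genes, 7 of them, summed to 743 to 814 in T65 and 1019 to 1089.5 in slr1. Most of that sum was GLUA-2, the only one called, which rose from 524 ± 15.1 to 766 ± 53.7. The GLUA-2 call was lost with arrays centred on the AFFX controls or with its 2 probe sets averaged. In 1 of the 16 settings tried, its direction reversed. Of the 7, 3 were below the reporter level in both groups. In whole shoots, fewer cells of a type and less RNA per cell cannot be told apart.

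The slr1 shoots had a transcript profile that differed widely from that of T65, in both directions. Calls were made at an adjusted p under 0.05 (limma, Benjamini-Hochberg over all probe sets). By this rule 5202 probe sets were called higher and 6178 lower, or 9.10% and 10.8% of those tested. Of these, 1335 rose and 1216 fell by at least 2-fold. With each of 17905 genes represented by its brightest probe set, 3094 genes (17.3%) were called higher and 3969 (22.2%) lower. These shares are the background against which each family count below is read. They hold for the arrays as scaled by the authors, and the shares of genes called under other scalings are not given. The arrays of slr1 and T65 did not overlap for 10335 genes, or 57.7%. The median log2 change over all genes was -0.06. Arrays were compared as scaled by the authors, for which the median change of all probe sets was -0.02. Centring on all 123 AFFX control probe sets moved it to -0.19. Fewer rises were called under that scaling, with 2237 probe sets higher and 6404 lower. Centring on array medians gave 3548 higher and 3800 lower. Family counts under these 2 scalings are to be read with those totals in mind.

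Family medians differed in sign. Chlorophyll synthesis, beta-expansins, tubulins and germin-like GER genes had medians above that of all genes, while chlorophyll breakdown, diterpenoid phytoalexins, KNOX homeobox genes and auxin response factors had medians below it. Chlorophyll breakdown had 4 of 4 members called lower, diterpenoid phytoalexins 12 of 16 and KNOX genes 5 of 9, against the background of 22.2%. Beta-expansins had 7 of 11 members called higher and GER genes 5 of 8, against 17.3%.

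**Figure D1:**
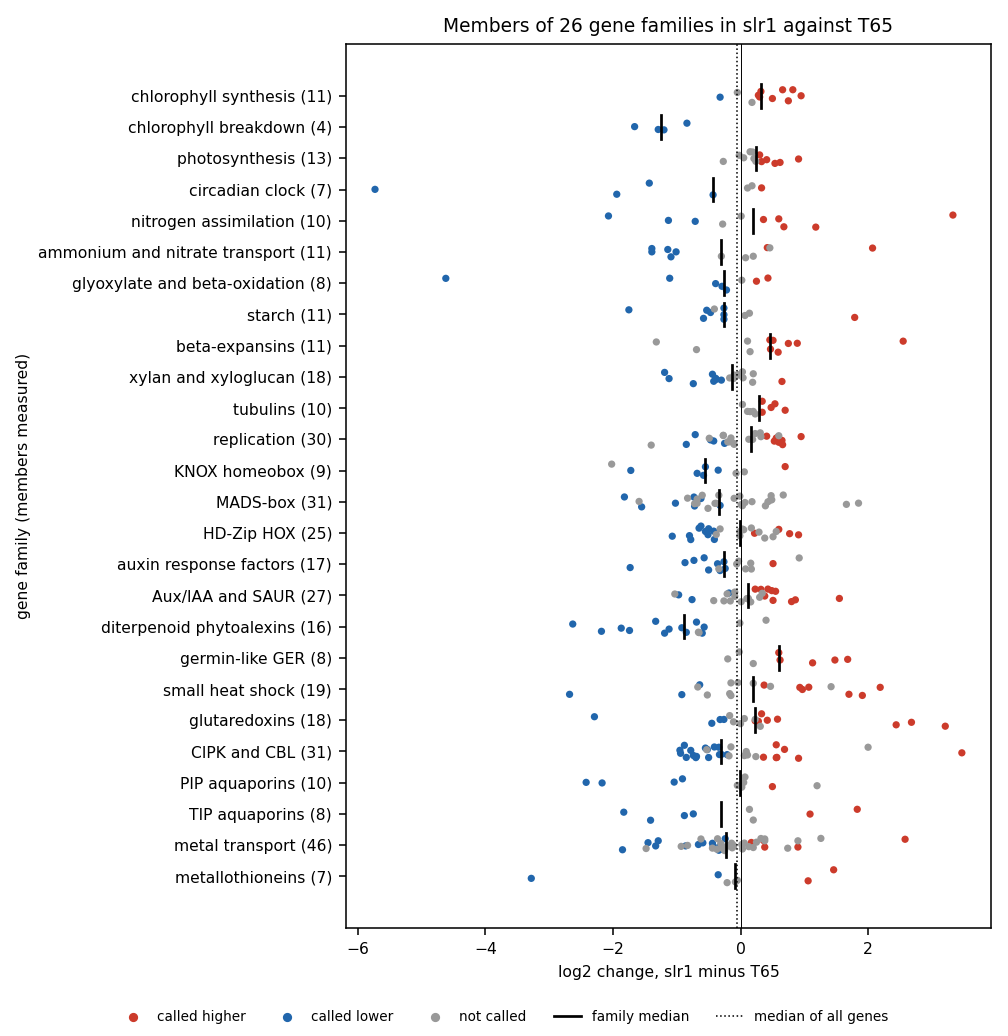
The log2 change of each measured member of 26 gene families in slr1 against T65 is shown on the horizontal axis, with the family on the vertical axis and the number of members in brackets. Red points were called higher, blue points lower and grey points neither; the short black line is the family median and the dotted line the median of all genes (-0.06). All 4 chlorophyll breakdown genes lie left of zero, and the clock gene PCL1 is plotted farthest left at -5.73. PCL1 was below the reporter level in slr1, so its fall is known only to be at least 9.32-fold.

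The largest rises and falls are given for genes whose brighter group reached the median gene's T65 signal. CIPK14, a calcineurin B-like interacting protein kinase, measured 501, 563 and 485 in T65 and 6429, 5385 and 5372 in slr1. Every slr1 array was far above every T65 array, a log2 change of 3.47 ± 0.08 (SE; adjusted p = 5.9e-13), although its probe set is of a kind that can also bind related transcripts. Such probe sets also measured, among others, OPR1, CAX1A, DUR3, CYP701A6, CYP714C2, OEE3, LIR1, PRR95, AMT3-2, SWEET2B, SWEET11, SWEET14, EXPB3, CAD2, CAD3, LAC7, POLD1, MADS50, MADS55, HOX6, HOX20, PIP2-7, TIP2-1, TIP2-2, TIP4-2, ZIP8, MT4C, PT4, HAK1, CYP76M8, HSP18.8, HSP26.2, CIPK2 and CIPK16. LIS, which encodes linalool synthase, an enzyme that makes a volatile monoterpene alcohol, measured 354, 305 and 268 in T65 and 2340.2, 2183 and 1859 in slr1. The groups did not overlap, and the signal was 6.89-fold higher in slr1 (adjusted p = 1.2e-10). ICL, the isocitrate lyase of the glyoxylate cycle, measured 3765, 3553 and 3495 in T65 against 172, 121 and 151 in slr1. That was the largest fall of this set, 24.6-fold (log2 -4.62 ± 0.10, adjusted p = 5.5e-13), with no overlap.

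Among the 20 largest rises of named genes were 3 glutaredoxins, the small heat-shock protein genes HSP24.1, HSP18.8 and HSP16.0, the CCCH zinc-finger genes C3H54 (4.28-fold) and C3H37 (3.50-fold), the hexokinase gene HXK7 (3.75-fold) and OPR1, which encodes a 12-oxophytodienoate reductase (3.67-fold). WRKY62, a transcription factor gene known in rice as a negative regulator of defence, rose from 731 ± 21.2 to 2547 ± 46.5 (adjusted p = 1.8e-11). AT15, an acyltransferase gene, rose by 1.75 ± 0.46 on the log2 scale but was not called without a trend in the prior variance. Among the 20 largest falls, CAX1A, a vacuolar cation/proton exchanger gene, went from 5305 ± 178 to 1028 ± 67.4 (adjusted p = 7.2e-10). DUR3, which encodes a urea transporter, measured 824, 763 and 883 in T65 and 142, 179 and 169 in slr1 (adjusted p = 6e-08). PDX12, an enzyme gene of vitamin B6 synthesis, fell by 1.74 ± 0.07 on the log2 scale. All 40 genes had groups that did not overlap, which the rule for choosing them required. Where any of them is described as not overlapping, here or below, that is no separate result.

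**Figure D2:**
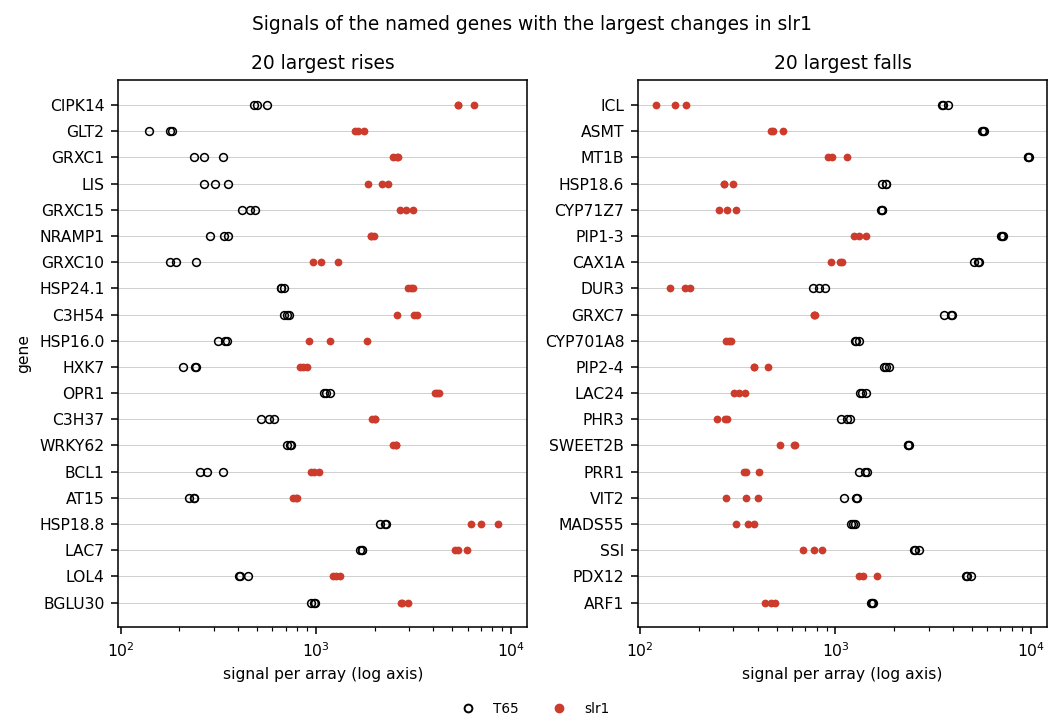
Signals per array, on a log axis, of the 20 largest rises and 20 largest falls among named genes whose brighter group reached 723.0, the median T65 signal over genes. Open circles are the 3 T65 arrays and filled red circles the 3 slr1 arrays; CIPK14 went from 485 to 563 in T65 to 5372 to 6429 in slr1, and ICL from 3495 to 3765 down to 121 to 172.

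The pathway's own genes changed modestly. The receptor gene GID1 (LOC4338764) measured 4442, 4503 and 4537 in T65 and 2467, 2456 and 2461 in slr1. The groups were apart and each was tight, the fall being 1.83-fold (log2 -0.87 ± 0.06, adjusted p = 3.1e-08). SLR1 itself (LOC4333860) measured 1234, 1355 and 1296 in T65 and 1473, 1631 and 1592 in slr1, so its transcript was present and 1.21-fold higher (adjusted p = 0.0051). Centring by array median or by the AFFX controls ended that call, and a transcript level does not check an allele whose change is not given. Of the other signalling genes, SLRL1, SPY, EL1 and GAMYB were not called.

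Along the synthesis pathway, the early enzyme CPS1 was not called (452 ± 18.6 in T65 and 426 ± 24.3 in slr1). CYP701A6, an ent-kaurene oxidase gene, rose from 324 ± 18.3 to 460.0 ± 13.6 (adjusted p = 0.0018), a call lost with AFFX centring. KAO, the ent-kaurenoic acid oxidase gene, measured 148, 146 and 155 in T65 and 283, 267 and 305 in slr1. It was 1.90-fold higher in slr1 with no overlap (adjusted p = 2.8e-05). GA20OX3, a late oxidase gene that feeds the bioactive forms, went the other way, with 792, 932 and 821 in T65 and 468, 527 and 529.7 in slr1, a fall of 1.67-fold (adjusted p = 3.1e-06). GA20OX2, the semidwarf gene of the green revolution, had overlapping groups and was not called. KS1 was called higher by 0.28 ± 0.09 on the log2 scale, but 8 of 15 settings ended that call. Of the 3 inactivation genes only CYP714C2 was called, lower by 1.52-fold (adjusted p = 0.0053), and it was lost when the gene's probe sets were averaged or those that can cross-hybridize were left out.

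Genes that build chlorophyll were higher and genes that take it apart were lower in slr1. Of the 11 synthesis genes measured, 8 were called higher and 1 lower, with a median log2 change of 0.32, against 17.3% and 22.2% of all genes. With AFFX centring 4 were higher and 1 lower. CHLH, a subunit of the magnesium chelatase that opens the chlorophyll branch, measured 5353, 5029 and 5452 in T65 and 9781, 9998 and 10717 in slr1. Its groups were well apart, at 1.93-fold (adjusted p = 1.3e-08). CHLD, another subunit, rose from 1657 ± 104 to 2788 ± 181, whereas CHLI, the third, was dim and overlapped (154 ± 14.5 and 148 ± 9.89). GLUTR, glutamyl-tRNA reductase at the entry to the pathway, measured 7631, 7294 and 7589.9 in T65 and 11260.3, 11744 and 12523 in slr1, 1.58-fold higher (adjusted p = 3.7e-06).

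The paired light-dependent reductases of protochlorophyllide went in opposite directions. PORB measured 4052, 3808 and 3939.6 in T65 and 6951, 6951 and 6925 in slr1, and PORA measured 4617, 4834 and 4652 against 3945, 4069.5 and 3328. Neither overlapped, PORB rising by 0.82 ± 0.05 and PORA falling by 0.32 (log2 -0.32 ± 0.07), the latter call being lost with array medians centred. CHLP, geranylgeranyl reductase, which makes the phytol tail, rose by 0.50 ± 0.06, a call lost with AFFX centring.

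All 4 breakdown genes measured were called lower, under each scaling tried. SGR, the STAY-GREEN magnesium dechelatase that begins breakdown of chlorophyll a, measured 7091, 6704 and 7721 in T65 and 1989, 2277 and 2572 in slr1. The highest slr1 array was far below the lowest T65 array, and the fall was 3.16-fold (adjusted p = 6.4e-09). NYC1 and NOL, which encode the chlorophyll b reductase subunits, fell by 2.44-fold (5838 ± 412 to 2391 ± 149) and 1.79-fold (1899.8 ± 64.3 to 1059 ± 40.7). RCCR1, red chlorophyll catabolite reductase, acts later in the pathway and fell 2.29-fold, from 1544 ± 151 to 673 ± 52.3 (adjusted p = 5.8e-07). The probe sets of CHLH, PORB, SGR and NYC1 can also bind related transcripts.

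Photosynthesis genes were called higher or not called, and no rise exceeded 1.88-fold. Of 13 measured, 6 were called higher and none lower, against 17.3% and 22.2% of all genes. Their median log2 change was 0.24, and with AFFX centring 3 were called higher. PSAH, a photosystem I subunit gene, measured 10030.1, 9885 and 10071 in T65 and 17193, 18904 and 20339 in slr1. That was 1.88-fold with no overlap (adjusted p = 2.4e-07). OEE3, of the oxygen-evolving complex, and LIR1, a light-regulated chloroplast protein gene, rose 1.45-fold and 1.54-fold. The very bright RCA and CAB2R, Rubisco activase and a chlorophyll-binding protein, were not called (adjusted p = 0.14 and 0.097).

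Most clock genes measured were lower in slr1. Of 7 clock genes, 4 were called lower and 1 higher, and with AFFX or median centring 4 were lower and none higher, as after quantile normalization. PCL1, the rice LUX homologue of the evening complex, measured 495, 539.5 and 408 in T65 and 24.4, 4.42 and 6.79 in slr1. The slr1 arrays were below the reporter level, so PCL1 was at least 9.32-fold lower (adjusted p = 9.2e-08). PRR1, the TOC1 homologue, measured 1443, 1321 and 1411 in T65 and 406, 349 and 339 in slr1, and PRR95 measured 11830.0, 11544 and 12229 against 4783, 4409 and 4052. Both had groups far apart, at 3.82-fold and 2.69-fold lower. GIGANTEA (GI), which links the clock to flowering, fell 1.35-fold (9381 ± 385 to 6938 ± 102). PRR73, of the same family as PRR95, was the member called higher, from 6424 ± 411 to 8074 ± 698 (adjusted p = 0.0089), a call lost with quantile normalization, with AFFX or median centring and without a trend. The PRR73 probe set can also bind related transcripts. The morning gene LHY and PRR37 were not called, with log2 changes of 0.18 ± 0.06 and 0.11 ± 0.07. The hour at which the shoots were cut is not given in the sources used here.

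**Figure D3:**
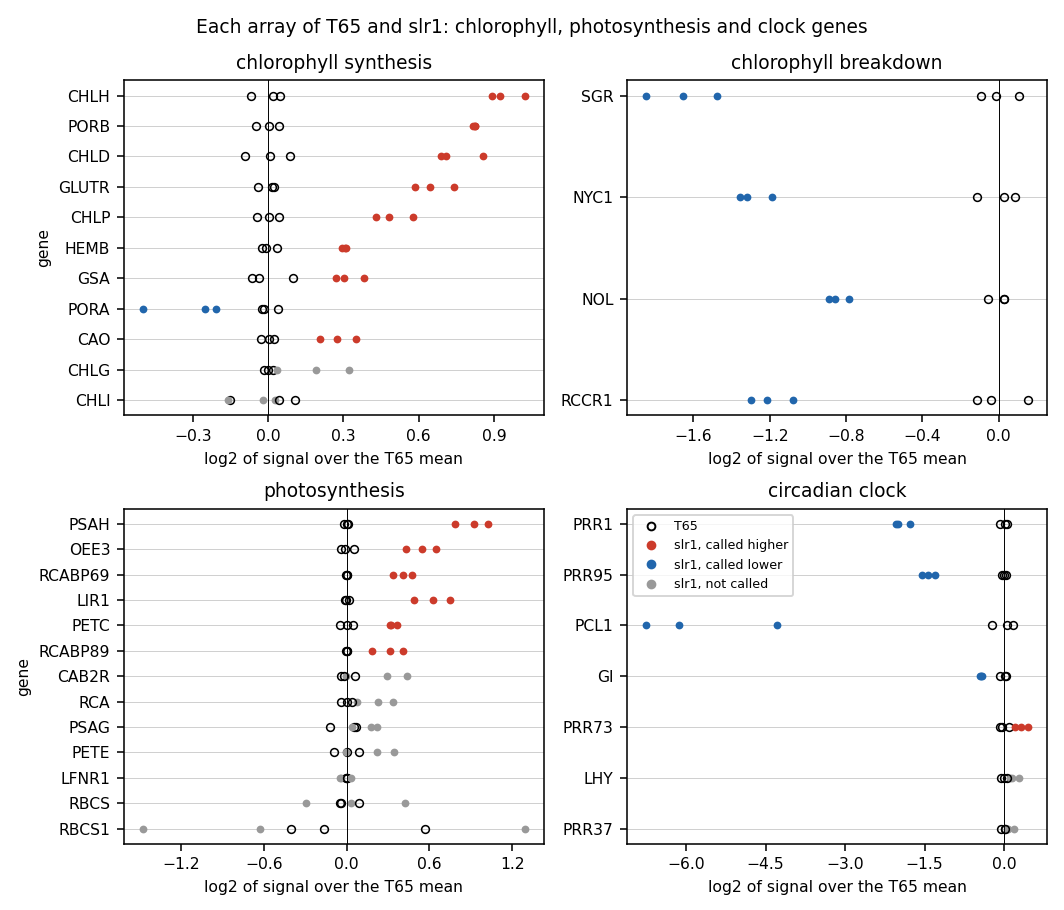
Each array's log2 signal over the T65 mean (horizontal axis) for genes of chlorophyll synthesis, chlorophyll breakdown, photosynthesis and the clock, 1 panel each. Open circles are T65 arrays and filled circles slr1 arrays, red where the gene was called higher, blue lower and grey neither. The 4 breakdown genes are lower on every slr1 array, CHLH rises from at most 5452 to at least 9781, and PCL1 drops from at least 408 to at most 24.4.

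Genes of ammonium assimilation changed in opposite directions within single steps. Of 10 nitrogen assimilation genes, 5 were called higher and 3 lower (4 and 3 with AFFX centring). GLT2, an NADH-dependent glutamate synthase gene, measured 183, 179 and 139 in T65 and 1764, 1595 and 1650.4 in slr1. It had the second largest rise of that set, 10.1-fold (log2 3.33 ± 0.09, adjusted p = 4.1e-12), with no overlap. GLU, the ferredoxin-dependent enzyme's gene, started bright and rose only 1.29-fold (10081 ± 428 to 12975 ± 463), a call lost with AFFX centring.

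Glutamine synthetase genes, whose products fix ammonium, went both ways. The plastid gene GLN2 measured 8555, 8289 and 8496 in T65 and 12448, 13874 and 14216 in slr1, and the cytosolic GLN1-1 measured 10914, 11199.5 and 11412 against 6356, 6956 and 7215. The groups were apart in both cases, with GLN2 1.60-fold higher and GLN1-1 1.64-fold lower (adjusted p = 1.3e-06 for each), while GLN1-2 and GLN1-3 were not called. Glutamate dehydrogenase genes also split. GDH2 rose from 2108 ± 87.9 to 4799 ± 395 and GDH1 from 1514 ± 16.8 to 2299 ± 115. GDH3 went from 165 ± 46.7 to below the reporter level, at least 3.19-fold lower (adjusted p = 5.8e-05). The nitrate reductase gene NIA1 measured 3884, 4091 and 3837 in T65 and 1869, 1788 and 1758 in slr1, 2.18-fold lower with no overlap, a call lost only when its 2 probe sets were averaged.

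Ammonium transporter genes were often lower. Of 11 ammonium and nitrate transport genes, 5 were called lower, all of the AMT family, and 2 higher, of which none remained with AFFX or median centring. AMT1-1, a high-affinity uptake transporter gene, measured 5442, 5737 and 5630.4 in T65 and 1985, 2310.5 and 2126 in slr1. The fall was 2.62-fold without overlap (adjusted p = 6.3e-10), and it was not called when the gene's probe sets were averaged. AMT1-2, AMT3-1 and AMT3-2 fell by 1.39, 1.09 and 1.01 on the log2 scale. AMT3-3 fell at least 1.90-fold, but was not called without T65 replicate 3.

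Both dedicated glyoxylate cycle enzymes fell. Alongside ICL, malate synthase (MS), the cycle's other dedicated enzyme, measured 1268, 1297 and 1283 in T65 and 569, 644 and 572 in slr1. The groups were apart, at 2.16-fold (adjusted p = 6e-09). Of the 8 glyoxylate and peroxisome genes in all, 5 were called lower and 2 higher. With arrays centred on their medians 2 were lower and 1 higher, and with AFFX centring 5 and none.

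Starch genes were mostly lower. Of 11, 7 were called lower and 1 higher, against 22.2% and 17.3% of all genes, and 5 and 1 with median centring (6 and 1 with AFFX centring). SSI, soluble starch synthase I, measured 2518, 2553 and 2670.1 in T65 and 680.5, 772 and 852 in slr1, a 3.37-fold fall with no overlap (adjusted p = 8.7e-10). The disproportionating enzyme genes DPE1 and DPE2, which act in starch turnover, fell 1.38-fold and 1.49-fold. PPDK2, a pyruvate phosphate dikinase gene, rose from 83.0 ± 16.5 to 285 ± 34.0, though its probe set can bind related transcripts. The ADP-glucose pyrophosphorylase gene AGPS2 was not called (4390.5 ± 224 and 4614 ± 163).

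Individual sugar carriers changed both ways. Of 12 SWEET genes, which encode sugar carriers, 4 were called higher and 3 lower, against 17.3% and 22.2% of all genes. With AFFX centring 3 were higher and 4 lower. SWEET2A measured 1824, 1754 and 1804 in T65 and 3725, 3743 and 3504 in slr1, and its paralogue SWEET2B measured 2360.0, 2341 and 2394 against 518, 611 and 621. Each had groups far apart, so SWEET2A was 2.04-fold higher while SWEET2B was 4.07-fold lower. SWEET11 and SWEET14, plasma membrane sucrose exporters, rose 1.62-fold and 2.02-fold. The sucrose uptake carrier gene SUT1 fell from 2237 ± 45.7 to 1221 ± 119 (adjusted p = 4e-07). In the same family of 17 sucrose and invertase genes, 4 were called higher and 5 lower (3 and 5 with AFFX centring), against those same shares. Its sucrose synthase genes SUS4 and SUS1 rose 1.81-fold and 1.63-fold. CIN2, a cell-wall invertase gene, rose from 225 ± 14.1 to 606 ± 29.1.

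Beta-expansins, proteins that loosen the grass cell wall, were mostly higher. Of 11 measured, 7 were called higher and none lower, with a median of 0.47 and with EXPB9 and EXPB10 below the reporter level in both groups. With AFFX centring 3 were called higher. EXPB11 measured 826, 953 and 824 in T65 and 1674, 1592 and 1554 in slr1, 1.86-fold higher with no overlap (adjusted p = 1.7e-05). EXPB3, the brightest, rose from 5439 ± 119.7 to 8187 ± 511. EXPB18 had a T65 mean below the reporter level (41.4, 45.0 and 15.4) and measured 145, 199 and 200.3 in slr1, at least 4.32-fold higher (adjusted p = 0.0021). EXPB2 overlapped between the groups and was not called. Of 14 alpha-expansin genes, 2 were called higher and 2 lower, against 17.3% and 22.2% of all genes. With AFFX centring none was higher and 2 were lower.

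Genes for xylan decoration and lignin were more often lower. Of 18 xylan and xyloglucan genes, 8 were called lower and 1 higher (8 and none with AFFX centring). XOAT7, an acetyltransferase gene for xylan, measured 798, 774 and 757 in T65 and 376, 313 and 333 in slr1, and GT43C, a glycosyltransferase gene of the xylan family, measured 603, 589.9 and 588 against 263, 293 and 266. Neither overlapped, and they were 2.28-fold and 2.17-fold lower. XTH8, a xyloglucan-modifying enzyme gene described in rice as responsive to gibberellin, was the only one called higher (1.57-fold, from 8044 ± 423 to 12609 ± 1046), a call lost with AFFX centring.

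In the monolignol pathway, 8 of 20 genes were called lower and 4 higher, and with AFFX centring 8 and 2. The largest change was a rise, that of CAD8C, a cinnamyl alcohol dehydrogenase-like gene, which measured 584, 662 and 665 in T65 and 1985, 1836 and 1617 in slr1. It was 2.84-fold higher with no overlap (adjusted p = 4.7e-08), a call lost when its probe sets were averaged. CAD2, the main lignin cinnamyl alcohol dehydrogenase gene of rice, measured 9516, 9718 and 10220.3 in T65 and 5125, 5478 and 5554 in slr1, 1.82-fold lower and without overlap. CAD3 fell 1.97-fold and 4CL3, a coumarate ligase gene, 1.42-fold, whereas CAD6 rose 1.64-fold. Laccases, which join monolignols, had opposite extremes. LAC24 measured 1436, 1329 and 1375 in T65 and 344, 320.4 and 301 in slr1, and LAC7 measured 1733, 1733 and 1676 against 5941, 5346 and 5149. The first was 4.29-fold lower and the second 3.19-fold higher, both with groups far apart. Cellulose synthase genes moved little, with 3 of 9 called lower (2 with AFFX centring) and CESA4 at 4103 ± 58.7 in T65 and 4187 ± 168 in slr1.

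Tubulin genes had 5 of 10 called higher and none lower. With AFFX centring 1 was called higher and none lower. TUBB7 rose 1.46-fold and TUBB6 1.62-fold. Of 30 DNA replication genes, 10 were called higher and 5 lower. With AFFX centring 3 were higher and 6 lower, and the family median went from 0.16 to -0.01. PCNA, the sliding clamp of the replication fork, measured 907, 881 and 847 in T65 and 1635, 1700.0 and 1749.9 in slr1. It was 1.93-fold higher as scaled by the authors, and the call held under every scaling tried. RPA2A, of the single-strand binding complex, rose 1.57-fold. The origin-recognition gene ORC2 (662 ± 52.4 to 368 ± 45.2) and the clamp-loader and polymerase genes RFC1 and POLD1 fell, by 0.85, 0.42 and 0.47 on the log2 scale. The 34 kinesin genes, whose products move along microtubules, had 9 called higher and 8 lower, against 17.3% and 22.2% of all genes. The counts were 1 and 9 with AFFX centring and 6 and 5 with array medians centred. KIN7F fell 1.91-fold, from 2235 ± 158 to 1172 ± 126 (adjusted p = 3.9e-06).

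KNOX homeobox genes, several of which act in the shoot meristem, were more often lower than higher. Of 9 KNOX genes, 5 were called lower and 1 higher, with a median of -0.55 (3 and 1 with array medians centred). OSH1, which keeps meristem cells undetermined and serves as the marker of the shoot apex and stem, measured 1156, 1279 and 1206 in T65 and 408, 360.3 and 338 in slr1. It was 3.30-fold lower with no overlap (adjusted p = 2.8e-09). OSH71 and OSH45 fell 1.60-fold and 1.46-fold. HOS66 rose from 2077 ± 135 to 3375 ± 127, on a probe set that can bind related transcripts. OSH1 was the only apex marker measured, so the share of apex and stem tissue in the harvest was not tested.

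Of 31 MADS-box genes, 7 were called lower, near the 22.2% of all genes, and none higher, against 17.3%. With array medians centred 5 were lower and none higher. Of the 31, 16 were below the reporter level in both groups. MADS55, of the group that represses flowering, measured 1258, 1202 and 1229 in T65 and 355, 310.0 and 383 in slr1, and MADS18, of the APETALA1 group, measured 1179, 1231 and 1223 against 389, 387 and 471. Both had groups far apart, at 3.53-fold and 2.93-fold lower. The SOC1-type genes MADS50, which promotes flowering in rice, and MADS56 fell 1.65-fold and 1.54-fold. The florigen gene HD3A was below the reporter level in both groups.

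HD-Zip genes, 25 in all, had 10 called lower and 4 higher (10 and 2 with AFFX centring). The class III genes HOX32 and HOX33, which pattern leaf sides and vessels, fell 1.72-fold (1514 ± 23.6 to 881 ± 14.6) and 1.46-fold. HOX20 fell from 468 to 224 on average, HOX6 1.75-fold, HOX4 1.56-fold and HOX22 1.53-fold.

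Auxin genes changed both ways. Of 17 auxin response factor genes, 9 were called lower and 1 higher, with a median of -0.26, 5 and 1 with array medians centred, and 9 and none with AFFX centring. The gene listed as ARF1, a symbol that other rice genes also carry, measured 1529.9, 1516 and 1564 in T65 and 489, 434 and 469 in slr1. It was 3.31-fold lower with no overlap (adjusted p = 7.7e-10). ARF18, ARF22 and ARF24 fell 1.65-fold, 1.49-fold and 1.42-fold. The Aux/IAA and SAUR genes, many of which respond to auxin early, had 10 of 27 called higher and 3 lower. With AFFX centring 4 were higher and 2 lower, and the median went from 0.12 to -0.05. IAA9 rose from 102 ± 12.0 to 298 ± 12.4, IAA12 1.75-fold and IAA13 1.43-fold, while IAA7 fell 1.95-fold and IAA25 1.69-fold. Of 25 genes of auxin synthesis, transport and conjugation, 4 were called higher and 7 lower, against 17.3% and 22.2% of all genes. With AFFX centring 3 were higher and 7 lower. GH3.2, which encodes an enzyme that joins auxin to amino acids, measured 1257, 1257 and 1243 in T65 and 400.0, 389.9 and 374 in slr1. It was 3.23-fold lower and the groups were far apart (adjusted p = 7.3e-10).

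Of 31 cytokinin genes, 6 were called higher and 10 lower, against 17.3% and 22.2% of all genes. The counts were 2 and 8 with AFFX centring and 4 and 7 with array medians centred. LOGL3, of the family that releases active cytokinin, measured 2741, 2785 and 2509 in T65 and 7118, 7013 and 6565 in slr1. It rose 2.58-fold with no overlap (adjusted p = 4.1e-10). LOGL9, of the same family, fell 1.43-fold. CKX5, a cytokinin oxidase gene, rose 1.94-fold, and the response regulator gene RR9 fell 2.12-fold, from 1370.4 ± 27.6 to 646 ± 41.7.

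Water channel genes of the PIP and TIP families changed in both directions. Of 10 plasma membrane PIP genes, 4 were called lower and 1 higher (4 and none with AFFX centring). PIP1-3 measured 7104, 7057 and 7225 in T65 and 1239, 1437 and 1327 in slr1, and PIP2-4 measured 1774, 1810.1 and 1872 against 382, 452 and 383. Both had groups far apart, at 5.35-fold and 4.50-fold lower, and PIP2-7 fell 2.06-fold. The brightest members, PIP1-1 and PIP1-2, overlapped between groups and were not called. Of 8 tonoplast TIP genes, 4 were called lower and 2 higher under each scaling, and log2 changes ran from -1.83 to 1.83. TIP2-2 measured 9039, 9533 and 9130.2 in T65 and 19338, 20486 and 19069 in slr1, 2.13-fold higher. TIP4-2 fell 3.55-fold (407 ± 9.34 to 115 ± 8.51), TIP2-1 2.66-fold and TIP1-2 1.84-fold.

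Metal transport genes, 46 in all, had 13 called lower and 5 higher, against 22.2% and 17.3% of all genes. The counts were 9 and 2 with array medians centred, and 14 and 1 with AFFX centring. NRAMP1, an iron and manganese uptake transporter gene, measured 338, 355 and 288 in T65 and 1909.8, 1998 and 1924 in slr1. It rose 5.96-fold with no overlap (adjusted p = 6.7e-09). VIT2, which encodes a transporter that loads iron into the vacuole, measured 1269, 1292 and 1103 in T65 and 403, 348 and 275 in slr1, 3.61-fold lower. COPT1, a copper transporter gene, fell 2.44-fold (3379 ± 227 to 1384 ± 34.6), ZIP8 1.82-fold, YSL9 2.51-fold and YSL13 1.51-fold. Of 4 genes for iron chelators, NAS2, a nicotianamine synthase gene, rose from 129.7 ± 28.0 to 634 ± 36.4 (adjusted p = 0.0014), while NAS3 and NAAT1 fell 1.57-fold and 1.43-fold. NAAT1 is also on the root marker list.

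Metallothioneins, small metal-binding proteins, held a large fall and smaller rises. The gene listed as MT1B, a symbol shared with another rice gene, measured 9758, 9723 and 9643 in T65 and 916, 960.4 and 1144 in slr1. That was a 9.69-fold fall with groups far apart (adjusted p = 1e-12). MT4A rose 2.08-fold (1673 ± 69.2 to 3490.2 ± 281) and MT4C 2.75-fold. The very bright MT2B and MT2C overlapped between groups.

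Among 19 phosphate genes, 4 were called lower and 2 higher (4 and none with AFFX centring), against 22.2% and 17.3% of all genes. PHR3, a transcription factor gene of the phosphate response, measured 1188, 1062 and 1140.2 in T65 and 270.4, 247 and 279 in slr1. It fell 4.26-fold with no overlap (adjusted p = 3.1e-10). PHO1-2, a gene for loading phosphate into the xylem, fell 2.74-fold, from 3690.5 ± 215 to 1346 ± 82.2. PT4 and SPX2 fell 2.87-fold and 2.43-fold. Of 23 potassium transport genes, 7 were called lower and 3 higher (7 and 1 with AFFX centring), against the same shares. HAK1 and HAK27 fell by 1.07 and 1.00 and HAK16 rose by 0.66 on the log2 scale.

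Genes for diterpenoid phytoalexins, the antimicrobial compounds that rice makes from the same precursor as gibberellin, were lower at most steps. Of 16 measured, 12 were called lower and none higher, with a median of -0.88, and 13 had groups that did not overlap, against 57.7% of all genes. At the cyclase step, CPS2 measured 329, 306 and 358 in T65 and 99.3, 77.7 and 96.4 in slr1. It was 3.65-fold lower with no overlap (adjusted p = 9.1e-07), while CPS4, the cyclase of the momilactone branch, overlapped and was not called (adjusted p = 0.055). Among the kaurene synthase-like genes that follow, KSL7, of the phytocassane branch, fell 2.28-fold (298 ± 29.7 to 133 ± 28.0), and KSL10, of the oryzalexin branch, fell 1.89-fold. KSL4 and KSL5 overlapped and were not called, KSL4 being dim at 59.7 ± 14.3 in T65.

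At the oxidation steps, CYP71Z7 measured 1715, 1729.9 and 1737 in T65 and 278, 308 and 252 in slr1, and CYP701A8 measured 1279.9, 1312 and 1266 against 283, 276 and 293. The groups were far apart for both, at 6.21-fold and 4.53-fold lower. CYP76M7 fell 3.33-fold, CYP99A2 and CYP99A3 1.48-fold and 1.80-fold, and CYP71Z6 and CYP76M8 1.51-fold and 1.62-fold. CYP76M5 was below the reporter level in slr1 and at least 2.12-fold lower, and CYP76M6 was not called. MAS, momilactone A synthase, fell from 182 ± 53.8 to 75.1 ± 28.8 (adjusted p = 0.0029).

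The tryptamine-derived serotonin and melatonin pathway had its strongest change at the last step. ASMT, which methylates N-acetylserotonin to melatonin, measured 5609.7, 5715 and 5737 in T65 and 465, 541 and 481 in slr1. The fall was 11.5-fold with groups far apart (adjusted p = 5.9e-13). T5H, tryptamine 5-hydroxylase, fell 2.31-fold (2289.9 ± 179 to 991 ± 66.1) and ASMT3 2.77-fold, whereas the decarboxylase gene TDC2 overlapped and was not called.

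Other defence families had more members called higher than lower. Of 8 germin-like GER genes, which encode cell-wall proteins linked to resistance, 5 were called higher and none lower. With AFFX centring 5 were higher and 1 lower. GER1 measured 347, 344 and 294 in T65 and 697, 740.2 and 715 in slr1, and GER3 measured 96.2, 115 and 150.0 against 320.1, 412 and 413. Both had groups apart, at 2.19-fold and 3.20-fold higher, and GER2 rose 2.78-fold. Of 11 chitinase and chitinase-like genes, 7 were called higher and 1 lower (3 and 1 with AFFX centring). CHT6 rose 2.07-fold, from 1057 ± 17.7 to 2189 ± 87.2, and CHT10 fell 1.57-fold. Of 6 NPR1-like genes, 3 were called higher and none lower (1 and none with AFFX centring), and NH1, the rice NPR1, overlapped and was not called.

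**Figure D4:**
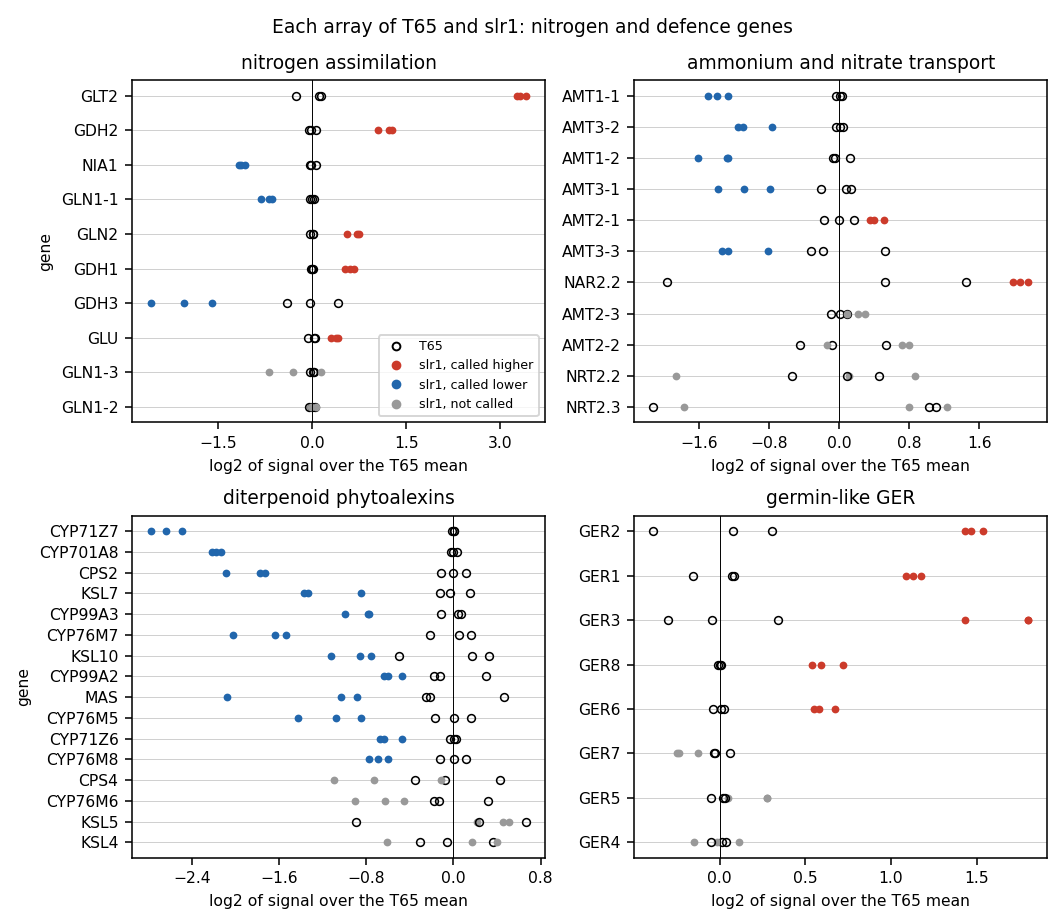
Each array's log2 signal over the T65 mean (horizontal axis) for genes of nitrogen assimilation, ammonium and nitrate transport, diterpenoid phytoalexins and germin-like GER proteins, 1 panel each. Open circles are T65 arrays and filled circles slr1 arrays, red where the gene was called higher, blue lower and grey neither. GLT2 moves from at most 183 in T65 to at least 1595 in slr1, and CYP71Z7 drops from at least 1715 to at most 308.

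Small heat-shock protein genes changed in both directions, with no heat treatment named in the labels. Of 19, 7 were called higher and 3 lower (6 and 3 with AFFX centring). HSP24.1 measured 687, 667 and 663 in T65 and 3079, 3146 and 2962 in slr1, 4.55-fold higher with no overlap (adjusted p = 2.3e-09). HSP18.8 and HSP17.4 rose 3.24-fold and 2.09-fold. HSP18.6 measured 1813, 1726 and 1813 in T65 and 298, 267 and 268 in slr1. It was 6.43-fold lower, and its probe set can bind related transcripts. HSP26.2 fell 1.89-fold, and HSP16.0 measured 925, 1188 and 1835 on the slr1 arrays.

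Glutaredoxins reduce disulfides with the help of glutathione. Of 18 genes, 8 were called higher and 4 lower, with 3 and 4 under AFFX centring. GRXC1 measured 268, 238 and 334 in T65 and 2609.8, 2625 and 2487 in slr1, a 9.28-fold rise. GRXC15 and GRXC10 rose 6.40-fold (455 ± 35.3 to 2910.0 ± 209.8) and 5.44-fold (205 ± 33.3 to 1113 ± 172). GRXC7 went the other way, with 3607, 3932 and 3923 in T65 and 773, 785 and 778 in slr1, 4.90-fold lower. All 4 are among the largest rises and falls above, for which groups without overlap were required.

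CIPK kinases and their calcium-sensing CBL partners had 31 members, of which 16 were called lower and 7 higher, with a median of -0.30 (11 and 6 with array medians centred, 16 and 4 with AFFX centring). CIPK14 was among the 7. CIPK2 measured 5549, 5713 and 5767 in T65 and 3194, 3059 and 3009 in slr1. It was 1.84-fold lower with no overlap (adjusted p = 8.4e-09). CIPK18, CIPK16 and CIPK10 fell 1.93-fold, 1.80-fold and 1.62-fold. CIPK1 rose 1.61-fold, from 4771 ± 170.0 to 7701 ± 129.

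The gid1-3 and gid2-1 arrays allow slr1 to be set against the other signalling mutants without the T65 means. Against the mean of both, 4864 genes (27.2%) were called higher in slr1 and 5398 (30.1%) lower. Chlorophyll synthesis had 9 of 11 members higher and 2 lower, and all 4 breakdown genes were lower. Of the tubulins 8 of 10 were higher, of the kinesins 26 of 34, of the cellulose synthases 7 of 9 and of the beta-expansins 8 of 11, with no member lower except 3 kinesins. Of the phytoalexin genes 13 of 16 were lower and 2 higher. These 2 comparisons share the slr1 arrays and the estimate of spread, which came from all 12 arrays, T65 included.

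For single genes, the position of slr1 differed. GID1 averaged 6407 ± 165 in gid1-3 and 6112 ± 432 in gid2-1, so that T65 lay between those lines and slr1 (slr1 minus their mean -1.35 ± 0.05, adjusted p = 1.7e-11). ICL averaged 10521 ± 451 in gid1-3 and 2987 ± 163 in gid2-1, both far above slr1. CHLH averaged 4565 ± 29.8 and 2377 ± 103, both below slr1, the difference from their mean being 1.63 (adjusted p = 2.4e-12). CIPK14 averaged 8294 ± 247 in gid1-3 and 3323 ± 142 in gid2-1, on either side of slr1 (slr1 minus their mean 0.12 ± 0.07, adjusted p = 0.21). GLT2 averaged 1307 ± 43.4 in gid1-3 and 7057 ± 365 in gid2-1, also on either side of slr1, which was below their mean (-0.86, adjusted p = 4.3e-07). PIP1-3 averaged 1021 ± 77.7 and 405 ± 40.4, both below slr1, and T65 was above all 3 mutants, with slr1 above the gid mean by 1.06 on the log2 scale (adjusted p = 1.4e-08). SWEET2B (363 ± 62.2 and 63.5 ± 15.9) and TIP1-2 (915 ± 49.0 and 81.2 ± 3.86) had the same order, slr1 being above the gid mean by 1.96 and 3.78.

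**Figure D5:**
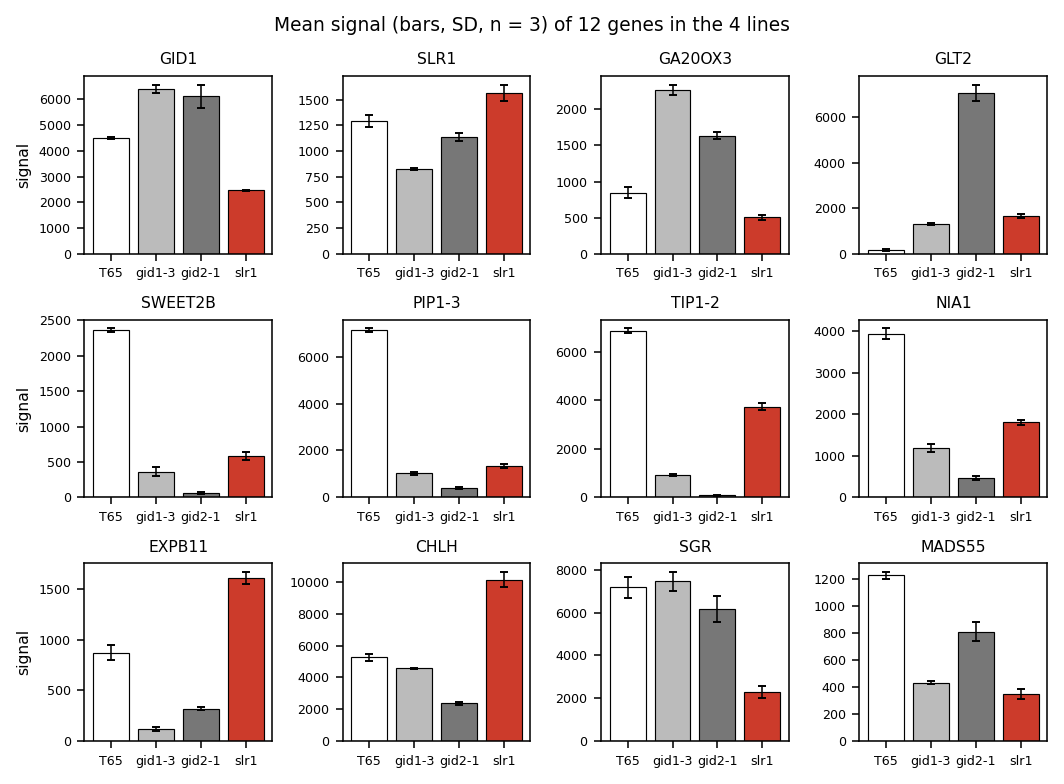
Mean signal of 12 genes in the 4 lines, on linear axes that start at 0. Bars are means of 3 arrays and error bars the SD; slr1 (red) is lower than either gid line for GID1 and SGR, higher for CHLH and EXPB11, and between T65 and the gid lines for SWEET2B, PIP1-3, TIP1-2 and NIA1.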

How the data were processed

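Values were taken from the authors' deposited table of probe-set signals (unit intensity, linear). Total RNA was purified on a column kit and labelled as biotinylated cRNA, per the labels' protocols. The software that made the signals is not given in the sources used here. Each array had the same trimmed mean, 500.1 after 2% of probe sets were cut from each end, which scaling by the authors would give. The floor was a signal of 1, and tests were run on the log2 scale. With limma 3.58.1 (R 4.3.3), lmFit estimated a mean for each of the lines from all 12 arrays and eBayes used an intensity trend. P-values were adjusted by Benjamini-Hochberg over 57194 probe sets. A call is an adjusted p under 0.05. The script was tested on simulated data.

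The platform table paired 22436 probe sets with 1 gene, 95 with several and 34663 with none, and the latter 2 kinds were not named. Where a gene had several, the one brightest on average (log2 signal) stood for it. Of 17905 genes, 2456 have a name. Families were matched by symbol or synonym. The members and lists were chosen with earlier results of these data known. Named were GID1 and SLR1, the 20 largest rises and falls among called, non-overlapping genes of which the brighter group was at or above 723.0, the median T65 signal over genes, up to 6 members per family with the smallest p, and members of pathways described step by step. Other genes named, such as those given as not called, dim or very bright, and those set against the gid lines, were chosen after their values were seen.

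Replicate numbers were taken from the titles. Residuals of slr1 and T65 arrays with the same number correlated at 0.121, 0 and 0.113. Those of arrays with different numbers correlated at -0.129 to 0.01. The labels do not say that a number marks a shared batch, so the numbers were not taken to pair the arrays. Whether the arrays share a batch by number was not tested. Alternatives were other scalings (quantile, array medians and, added after seeing the data, AFFX controls), no dim probe sets, no cross-hybridizing probe sets, the mean of a gene's probe sets, a pseudocount of 16, no trend, 6 arrays only, a replicate block, a 2-fold threshold and leaving out each array in turn. No genome came with the data, so no positions are given.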

Additional observations from a re-analysis of the deposited data

How the results depend on the processing

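Counts of probe sets called higher ranged from 4489 to 4749 when 1 array was left out in turn, and of those called lower from 4932 to 5722. Scaling had the largest effect on the split: centring on the AFFX controls gave 2237 higher and 6404 lower, and centring on array medians 3548 higher and 3800 lower. A 2-fold threshold left 1335 and 1216. With the replicate number as a block, 5143 were higher and 6091 lower than in T65, and 4851 genes were higher and 5388 lower than the gid mean, although the numbers were not taken to pair the arrays.

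Of the 532 genes followed, the direction of a few depended on the probe set chosen. With the mean of a gene's probe sets, PT1 (LOC4331635) went to -0.81, MPK8 to -0.13, EXPA7 to 0.75 and GSTU6 to 0.39. With probe sets that can cross-hybridize left out, PT1 went to -1.98, MPK8 to -0.57, RPS20 to 0.36, SBE to 0.23, FTSH9 to 0.03 and ASA2 to -0.35. The cause was not tested. Signals near the reporter level have a bound only.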

Other observations

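Jasmonate genes, 40 in all, had 8 called higher and 6 lower, against 17.3% and 22.2% of all genes. The counts were 3 and 6 with AFFX centring and 5 and 4 with array medians centred. Lipoxygenase genes went both ways: LOX1.1 rose from 185 ± 16.1 to 617 ± 39.9, while LOX9 fell from 1972 ± 25.2 to 925 ± 50.4. AOS2, allene oxide synthase, fell 2.11-fold, and the receptor gene COI1 fell from 4697 ± 186 to 2701 ± 139.8 (limma, adjusted p = 7.9e-08). Of 11 ethylene genes, 4 were called higher and 4 lower (3 and 4 with AFFX centring). The synthesis genes ACO1 and ACS2 rose 1.66-fold and 1.84-fold, and the receptor genes ETR3 and ERS1 fell 1.68-fold and 1.39-fold.

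Among strigolactone and carotenoid genes, PSY2, a phytoene synthase gene, fell from 4335 ± 67.1 to 2025 ± 83.4, and D3 and D14, the F-box protein and receptor of strigolactone signalling, rose 2.05-fold and 1.41-fold. The blue-light receptor gene PHOT1A rose from 1341 ± 79.5 to 3305 ± 174, on a probe set that can bind related transcripts. In the brassinosteroid group of 17, 1 was called higher and 1 lower (1 and 2 with AFFX centring). The synthesis gene DWARF fell from 815 ± 15.1 to 392 ± 65.4, and BU1, a helix-loop-helix gene known to respond to the hormone, rose from 97.4 ± 12.8 to 276 ± 17.6. RAB21, a dehydrin gene, rose 2.14-fold and LEA19 fell 1.82-fold. ABCG45, a transporter gene, was below the reporter level in slr1 and at least 5.24-fold lower.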
